A study of Mus musculus with 8 samples.

Results

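The galectin genes Lgals1, Lgals2, Lgals3, Lgals4, Lgals8, Lgals9 and Lgals12, together with the galectin ligand gene Lgals3bp, were followed in baseline distal colon of mice with and without epithelial human SIGLEC12. They were taken by gene symbol from the deposited expression table, with the row of the highest mean used where a symbol was repeated, which gave 8 genes of 52143. Control mice (Villin1-Cre-ERT) carried a tamoxifen-inducible Cre driven by the promoter of the epithelial villin gene, and Siglec-XII mice (SIGLEC12-Villin1-Cre-ERT) carried in addition the human gene behind a loxP-flanked stop, so that both groups had the Cre and only the latter could make the human receptor in intestinal epithelium. Both groups were 8 weeks old and received tamoxifen (10 mg/ml) for 5 days, and the colon was taken 7 days after the last dose. Each group had 4 samples, numbered 1 to 4 in the labels, whereas the design text gives 3 mice for a condition and the paper's methods describe 3 technical replicate libraries from a sample. Some of the 4 samples of a group may therefore share an animal. The labels do not name the animal behind each sample or its strain, so the p-values measure the spread between these samples, which may in part be technical. The human transgene was not analysed here, and the labels were not checked on it.

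Galectins are soluble lectins that bind beta-galactoside sugars on cell-surface and secreted glycoproteins, and they also recognise such sugars when a damaged vesicle exposes them to the cytosol. Prototype members (Lgals1 and Lgals2) have a single type of carbohydrate-recognition domain and act as dimers, the chimera-type member (Lgals3) joins that domain to a flexible tail through which it forms oligomers, and tandem-repeat members (Lgals4, Lgals8, Lgals9 and Lgals12) join a pair of different domains by a linker. In the gut, galectin-3 and galectin-4 are made by the epithelium, where galectin-4 takes part in sorting proteins to the apical membrane, while galectin-1 is best known from stromal cells.

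The values were log2(TPM + 1), where TPM is the length-corrected abundance of a transcript within its sample, so levels of different genes can be set beside each other on the TPM scale. The TPM of each sample summed to 1000000 and kept no record of read number, and the depth of the samples is therefore unknown here. Differences between the groups are given as Siglec-XII minus Control on the log2(TPM + 1) scale, which understates changes of low genes. All 8 galectin genes passed the filter of at least 1 TPM in at least 4 samples, as did 13164 genes in all. The libraries were not level with each other. Across tested genes, the median deviation from the mean of all 8 samples (log2) was -0.04, 0.15, 0.08 and 0.10 for controls 1 to 4, and 0.10, 0.06, -0.16 and -0.30 for Siglec-XII 1 to 4. The Siglec-XII average was thus lower by 0.15 because of Siglec-XII 3 and Siglec-XII 4, while the other two lay within the range of the controls. Differences are therefore also given after each sample was centred on its own median, which adds the same 0.21 to the log2 difference of every gene.

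Siglec-XII 3 and Siglec-XII 4 stood apart in other ways as well. They had the fewest genes at 1 TPM or more (12827 and 12748, against 13132 to 13715 in the other 6 samples) and the largest share of TPM in their 10 most abundant genes (19.6% and 20.6%, against 11.5% to 18.7%). The 13 protein genes of the mitochondrial genome, listed after the data were seen, made up 6.35%, 5.26%, 6.95% and 6.90% of the TPM in the controls and 7.95%, 8.24%, 9.35% and 12.0% in the Siglec-XII samples, so that the groups did not overlap and the same pair was highest. The part of these properties in the results below was not tested.

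The samples had the markers of colon epithelium. All 12 markers of colonocytes and other epithelium passed the filter, and the most abundant, the simple-epithelium keratin Krt8, lay between 3573 and 5352 TPM over the 8 samples. The guanylin gene Guca2a lay between 517 and 798 TPM, and the intestinal transcription factor gene Cdx2 between 4.16 and 13.4 TPM. All 6 goblet cell markers passed as well, led by Zg16 at 4202 to 7586 TPM, while the mucin gene Muc2 lay between 45.3 and 136 TPM. Of 8 leukocyte and macrophage markers 3 passed, and the pan-leukocyte gene Ptprc stayed at 0.98 TPM or below in every sample. Of 7 adipocyte markers 5 passed, with Cfd the most abundant at 1.67 to 21.97 TPM, Fabp4 at 2.79 to 25.1 TPM and Retn at 0.46 to 7.82 TPM.

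Some samples stood apart in genes of squamous epithelium, the lining of the anal canal and skin. These 10 genes were listed after the data were seen. The basal keratin Krt14 had 5674, 276, 250.5 and 3252 TPM in controls 1 to 4 and 258, 1652, 119.9 and 157 TPM in Siglec-XII samples 1 to 4. The summed TPM of the list was 25440.1, 2116, 1814 and 13045 in the controls and 2054, 6278, 904 and 1101 in the Siglec-XII samples. Control 1, Control 4 and Siglec-XII 2 were thus the squamous-rich samples, and both groups held at least 1 of them. Fits without them compare only Control 2 and Control 3 with Siglec-XII 1, Siglec-XII 3 and Siglec-XII 4. Fewer samples stand behind the p-values of those fits, so a p above 0.05 there does not by itself mean a smaller difference. All 10 genes had a difference below 0. For 1, the desmosomal cadherin gene Dsg3, the unadjusted p was 0.05 or less, beside 7.67% of all tested genes lower at that limit. Its difference was -1.69 (95% interval -3.29 to -0.09, limma adjusted p = 0.515), -0.88 without the 3 squamous-rich samples and -0.55 with array weights, described below. The unadjusted p of Dsg3 was above 0.05 in both of these fits and after centring. Krt14 and Krt6a each turned above 0 in 1 of 17 alternatives, to 0.40 and 0.07. The gene of this list with the least negative difference was Krt1, at 67.2 to 641 TPM, and that with the most negative was Krt6a, at 56.8 to 3003 TPM.

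Lgals4 and Lgals3 were the most abundant of the 8 genes in control colon. In the controls Lgals4 averaged 5034 ± 346 TPM (SD, n = 4) and Lgals3 2706 ± 298 TPM, and the next of the 8, Lgals3bp, lay between 40.8 and 84.2 TPM, so that the mean of Lgals3 stood 42.3-fold above that of Lgals3bp. Among all genes of the table, Lgals4 ranked between 14 and 25 in the 8 samples and Lgals3 between 33 and 73. The remaining genes followed in the order Lgals9 (37.0 ± 8.29 TPM), Lgals8 (25.4 ± 2.80 TPM), Lgals1 (18.7 ± 3.84 TPM), Lgals12 (10.7 ± 2.35 TPM) and Lgals2 (6.10 ± 0.78 TPM).

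The order between neighbours held in all 8 samples except for Lgals8 and Lgals1. Lgals4 was above Lgals3 in 8 of 8 samples, with a mean log2 ratio of 0.86 ± 0.09 (SD), and Lgals9 was above Lgals8 in 8 of 8 samples, with a mean log2 ratio of 0.55 ± 0.23. Lgals8 exceeded Lgals1 in 6 of 8 samples, with a mean log2 ratio of 0.46 ± 0.57, so this pair did not differ beyond its spread, and the exceptions were Siglec-XII 3 and Siglec-XII 4. The ranges of the controls also overlapped for Lgals3bp and Lgals9, although Lgals3bp was the higher gene within each of the 8 samples (mean log2 ratio 0.72 ± 0.20).

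**Figure D1:**
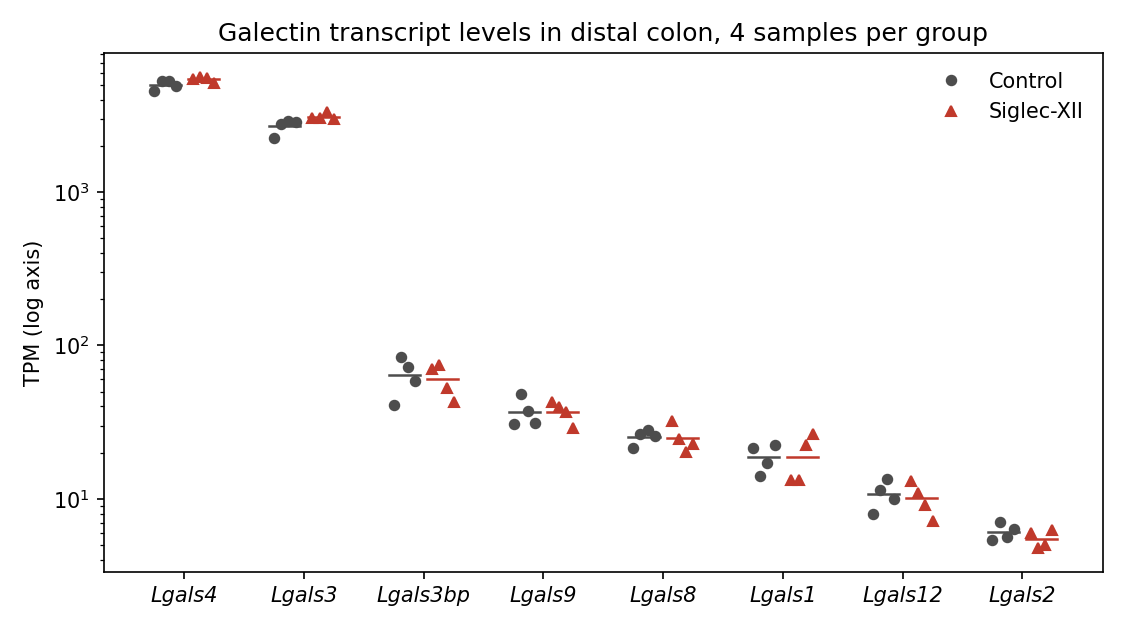
TPM of each galectin gene on a log axis, with a point for each sample (circles, Control; triangles, Siglec-XII; 4 per group) and a line at the group mean. Lgals4 and Lgals3 lay above 2000 TPM in every sample and the other 6 genes at 84.2 TPM or below.

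The sum of the 8 genes was 6979, 8245, 8404 and 7980.2 TPM in the controls and 8716, 8868, 8997 and 8277 TPM in the Siglec-XII samples. This was 0.790 ± 0.064% of the library in the controls and 0.871 ± 0.031% in the Siglec-XII samples (SD, n = 4), and the groups overlapped because Siglec-XII 4 lay below Control 3. Lgals4 and Lgals3 together held 98.0% of the sum in the controls and 98.2% in the Siglec-XII samples on average. With Lgals7, a galectin gene outside the set that is described below, counted as well, this share was 92.9%, 95.7%, 95.8% and 90.8% in the controls and 95.1%, 93.9%, 96.9% and 96.0% in the Siglec-XII samples. The ratio of Lgals4 to Lgals3 TPM was 2.02, 1.90, 1.85 and 1.71 in the controls and 1.81, 1.87, 1.67 and 1.71 in the Siglec-XII samples, so the highest ratio was that of Control 1 and the lowest that of Siglec-XII 3.

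RefSeq promoters (GRCm38.p6) were found for 6 of the 8 genes, and Lgals1 and Lgals12 were not among them. Those of Lgals4 and Lgals3 are shown because these genes were the most abundant of the set, that of Lgals9 because an interferon list was examined, and that of Lgals2 because it held letters of intestinal transcription factor motifs. Each runs from 250 bases before the annotated start to 30 bases from it, 5′ to 3′ on the gene's strand, at chr7:28833544-28833823 (plus strand) for Lgals4, chr14:47373610-47373889 (plus) for Lgals3, chr11:78984895-78985174 (minus) for Lgals9 and chr15:78855500-78855779 (minus) for Lgals2. The start is that of RefSeq and can differ from the gene positions given below, which are from GENCODE. The Lgals3 window lies inside the gene span given below, and the Lgals4 window ends before the gene start given below. Capitals mark matches to a searched motif.
Lgals4: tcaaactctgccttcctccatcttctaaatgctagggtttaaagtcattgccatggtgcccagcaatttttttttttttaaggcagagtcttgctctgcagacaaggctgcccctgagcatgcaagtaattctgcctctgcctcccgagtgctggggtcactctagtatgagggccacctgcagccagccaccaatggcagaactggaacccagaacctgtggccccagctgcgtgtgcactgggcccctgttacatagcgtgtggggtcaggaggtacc
Lgals3: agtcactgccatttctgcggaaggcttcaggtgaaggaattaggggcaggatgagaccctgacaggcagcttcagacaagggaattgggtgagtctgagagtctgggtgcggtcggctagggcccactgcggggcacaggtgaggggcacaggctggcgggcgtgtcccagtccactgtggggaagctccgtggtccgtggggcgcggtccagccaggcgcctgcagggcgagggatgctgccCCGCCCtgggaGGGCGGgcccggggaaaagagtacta
Lgals9: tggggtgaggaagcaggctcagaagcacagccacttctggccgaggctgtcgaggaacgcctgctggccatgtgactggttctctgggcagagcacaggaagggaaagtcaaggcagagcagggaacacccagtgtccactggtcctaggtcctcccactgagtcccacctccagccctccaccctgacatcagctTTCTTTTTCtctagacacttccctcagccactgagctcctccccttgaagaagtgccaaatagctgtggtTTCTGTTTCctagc
Lgals2: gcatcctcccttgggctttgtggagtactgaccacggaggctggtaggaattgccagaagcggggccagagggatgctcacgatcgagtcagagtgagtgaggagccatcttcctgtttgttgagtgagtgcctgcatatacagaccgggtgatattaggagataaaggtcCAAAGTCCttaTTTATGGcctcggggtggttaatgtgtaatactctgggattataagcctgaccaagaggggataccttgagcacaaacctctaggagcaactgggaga
The motifs, chosen after the promoters were seen and searched on both strands, were a shortened core of the interferon-stimulated response element (GAAANNGAA, in 8.1% of 32851 promoters of the same length), the TATA box (TATAAA, 13.1%), the GC box (GGGCGG, 34.7%), an HNF4 core (CAAAGTCC, 1.4%) and a caudal or CDX core (TTTATNG, 10.5%). Lgals9 had 2 interferon-type matches on the opposite strand, with first bases at positions -54 and 17 (the start being 1). Lgals3 had 2 GC boxes, at -7 on the opposite strand and at 5. Lgals2 had the HNF4 core at -79 and the caudal core at -68, and no matches overlapped. The windows of Lgals4, Lgals3bp and Lgals8 held none of these letters. A match is a description of the letters only.

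Lgals3, the chimera-type galectin, lies on chromosome 14 (47367751 to 47386160, plus strand, GRCm38, gene ENSMUSG00000050335). It had 2266, 2781, 2892 and 2887 TPM in controls 1 to 4 and 3036, 3028, 3320.3 and 3001 TPM in Siglec-XII samples 1 to 4. The groups did not overlap, the Siglec-XII values being the higher, with Control 1 the lowest and Siglec-XII 3 the highest of the 8. The mean was 2706 ± 298 TPM in the controls and 3096 ± 150.1 TPM in the Siglec-XII samples (SD, n = 4), a ratio of 1.14. The log2 difference was 0.20 ± 0.10 (SE; 95% interval -0.03 to 0.43), and it did not pass the test (limma adjusted p = 0.515 over all tested genes, unadjusted p above 0.05).

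Lgals3 was thus 1 of 8 galectin genes whose groups did not overlap with Siglec-XII higher, beside 1.05% of all tested genes, and 0 of 8 were separated in the other direction, beside 4.06%. After median centring the difference in Lgals3 was 0.41 (95% interval 0.06 to 0.77, limma adjusted p = 0.459), and after quantile normalization it was 0.19. The direction was kept, which for centring follows from the 0.21 it adds to every gene. Of the 3 scales only the centred one gave an unadjusted p of 0.05 or less, beside 8.64% of all tested genes higher at that limit there. The centred values, as deviations from the mean of the 8 samples, were -0.33, -0.24, -0.09 and -0.17 in the controls and -0.04, 0.01, 0.43 and 0.43 in the Siglec-XII samples, so Siglec-XII 3 and Siglec-XII 4, the samples with the low medians, carried most of the centred difference. Control 1 was also the sample richest in squamous RNA. Without Control 1 the difference fell to 0.12 (limma adjusted p = 0.447), and without the 3 squamous-rich samples it was 0.14 (adjusted p = 0.514). With those samples left out and median centring as well, it was 0.44 (limma adjusted p = 0.534).

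Lgals4, the tandem-repeat galectin of the gut epithelium, lies on chromosome 7 (28833854 to 28841708, plus strand, gene ENSMUSG00000053964). It had 4586, 5272, 5338 and 4939 TPM in the controls and 5503, 5672, 5531 and 5143 TPM in the Siglec-XII samples. Control 1 was again the lowest, and the groups overlapped because Siglec-XII 4 lay below Control 2 and Control 3. The log2 difference was 0.12 ± 0.09 (SE; 95% interval -0.08 to 0.32; limma adjusted p = 0.554). It was 0.33 after median centring, which adds 0.21 to every gene, and 0.04 after quantile normalization, above 0 on all 3 scales. Without the 3 squamous-rich samples it was 0.02, and 0.32 with centring as well. With array weights, described below, it was 0.14, with an unadjusted p below 0.05 and limma adjusted p = 0.336. In that fit 1851 of the 13164 tested genes had an unadjusted p of 0.05 or less.

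The epithelial markers were the measured background for this pair. The summed TPM of the 12 epithelial markers was 12613, 16832, 16887 and 14139 in the controls and 15857, 16703, 14454 and 13074 in the Siglec-XII samples, so that Control 1 was low here too, whereas Siglec-XII 3 and Siglec-XII 4 were lower than Siglec-XII 1 and Siglec-XII 2. In the epithelial list 0 of 12 genes had an unadjusted p of 0.05 or less, beside 8.87% of all tested genes. The median difference of the list was -0.06 (0.15 after centring, when 1 gene, Krt20, was higher at an unadjusted p of 0.05 or less, beside 8.64% of all tested genes). The part of epithelial content in the Lgals3 and Lgals4 values was not tested, and in bulk tissue fewer cells of a type and less RNA per cell cannot be told apart.

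Lgals9, a tandem-repeat galectin known for its actions on T cells, lies on chromosome 11 (78962974 to 78984946, minus strand, gene ENSMUSG00000001123). It had 30.6, 48.6, 37.5 and 31.4 TPM in the controls and 42.7, 39.5, 37.05 and 28.8 TPM in the Siglec-XII samples. The highest and the lowest of the 8 samples, Control 2 and Siglec-XII 4, were in different groups and the ranges overlapped. The means were 37.0 ± 8.29 and 37.0 ± 5.96 TPM (SD, n = 4), and the log2 difference was 0.01 ± 0.17 (SE; 95% interval -0.38 to 0.40; limma adjusted p = 0.981). It was 0.22 after median centring and 0.14 after quantile normalization. It turned to -0.25 without the 3 squamous-rich samples (adjusted p = 0.552) and to between -0.07 and -0.03 without Control 1, Control 4, Siglec-XII 1 or Siglec-XII 2. With the squamous-rich samples left out and centring as well, it was 0.05.

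Lgals8, a tandem-repeat galectin that binds damaged vesicles and recruits autophagy receptors, was at 21.5 to 28.0 TPM in the controls and 20.1 to 31.97 TPM in the Siglec-XII samples (chromosome 13, 12439415 to 12464944, minus strand). Its highest value was that of Siglec-XII 1 and its lowest that of Siglec-XII 3. Lgals12, known mainly from adipocytes, was at 7.96 to 13.5 TPM in the controls and 7.16 to 13.1 TPM in the Siglec-XII samples (chromosome 19, 7596660 to 7607193, minus strand). Its lowest values were those of Siglec-XII 4 and Control 1, whereas the summed adipocyte markers were lowest in Control 3 (10.6 TPM), Control 1 (12.7 TPM) and Siglec-XII 1 (13.6 TPM) and highest in Control 2 (55.4 TPM). The sample with the highest Lgals12, Control 3, was therefore the lowest in adipocyte markers.

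The log2 difference was -0.05 ± 0.15 (SE; 95% interval -0.39 to 0.30) for Lgals8 and -0.09 ± 0.21 (95% interval -0.56 to 0.38) for Lgals12, with adjusted limma p of 0.891 and 0.836. Both turned above 0 with scaling, to 0.17 and 0.12 after median centring and to 0.11 and 0.13 after quantile normalization. Without the 3 squamous-rich samples they were -0.15 and -0.36. Of the 31-base windows of their transcripts, 2.1% for Lgals8 and 0.47% for Lgals12 also occurred in other genes, and for the other 6 genes this share was 0.

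Lgals1, the prototype galectin best known from stromal cells, lies on chromosome 15 (78926725 to 78930465, plus strand, gene ENSMUSG00000068220). It had 21.3, 14.1, 17.0 and 22.4 TPM in the controls and 13.2, 13.2, 22.3 and 26.3 TPM in the Siglec-XII samples. The Siglec-XII samples split into a low pair (1 and 2) and a high pair (3 and 4), and the controls spanned 14.1 to 22.4 TPM. The means of the groups were 18.7 ± 3.84 and 18.7 ± 6.60 TPM (SD, n = 4), and the log2 difference was -0.04 ± 0.25 (SE; 95% interval -0.60 to 0.52; limma adjusted p = 0.946), which turned to 0.18 after median centring and to 0.13 after quantile normalization. It moved both ways under other choices, to -0.37 (adjusted p = 0.361) with samples weighted by their fit to the model (limma array weights) and to 0.33 (adjusted p = 0.560) without the 3 squamous-rich samples.

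The summed TPM of the fibroblast markers was 34.1, 12.7, 34.7 and 40.4 in the controls and 17.6, 16.7, 23.99 and 73.9 in the Siglec-XII samples, with Dcn the most abundant at 5.58 to 57.1 TPM, Col3a1 at 3.36 to 14.0 TPM and Pdgfra below 1 TPM in every sample. Of 6 fibroblast markers 5 passed the filter, and 0 had an unadjusted p of 0.05 or less, beside 8.87% of all tested genes. The median difference of these markers was -0.09 (0.12 after centring). Siglec-XII 4 was the highest sample for both Lgals1 and the fibroblast sum, and Control 2, Siglec-XII 1 and Siglec-XII 2 were the lowest for both. Dcn held most of that sum in Siglec-XII 4, whereas Col1a1, Col1a2, Col3a1 and Pdgfra were highest in Control 3 or Control 4, and Col1a1 had 3.79 TPM in Control 3 against 1.42 TPM in Siglec-XII 4. The part of fibroblast content in Lgals1 was not tested.

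Lgals2, the other prototype galectin and the lowest of the 8 genes, had 5.37, 7.09, 5.60 and 6.33 TPM in the controls and 5.98, 4.75, 5.01 and 6.28 TPM in the Siglec-XII samples (chromosome 15, 78850860 to 78855529, minus strand). Siglec-XII 2 and Siglec-XII 3 were the lowest samples, and the groups overlapped. The log2 difference was -0.13 ± 0.14 (SE; 95% interval -0.44 to 0.19; limma adjusted p = 0.665), and it was 0.09 after median centring and 0.12 after quantile normalization. With array weights it was -0.29, with an unadjusted p below 0.05 and limma adjusted p = 0.277, beside 1851 of the 13164 tested genes at that unadjusted limit.

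Lgals3bp encodes a secreted, heavily glycosylated protein that galectin-3 binds and is not itself a galectin (chromosome 11, 118392751 to 118402092, minus strand). It had 40.8, 84.2, 72.6 and 58.3 TPM in the controls and 70.4, 74.6, 52.65 and 42.7 TPM in the Siglec-XII samples. Control 1 and Siglec-XII 4 were the lowest and Control 2 the highest, so the spread within each group was wider than the difference between the means. That difference was -0.08 ± 0.25 on the log2 scale (SE; 95% interval -0.63 to 0.48; limma adjusted p = 0.888), and it turned to 0.14 after median centring and to 0.03 after quantile normalization. Without the 3 squamous-rich samples it was -0.52 (adjusted p = 0.491), and -0.22 with centring as well.

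**Figure D2:**
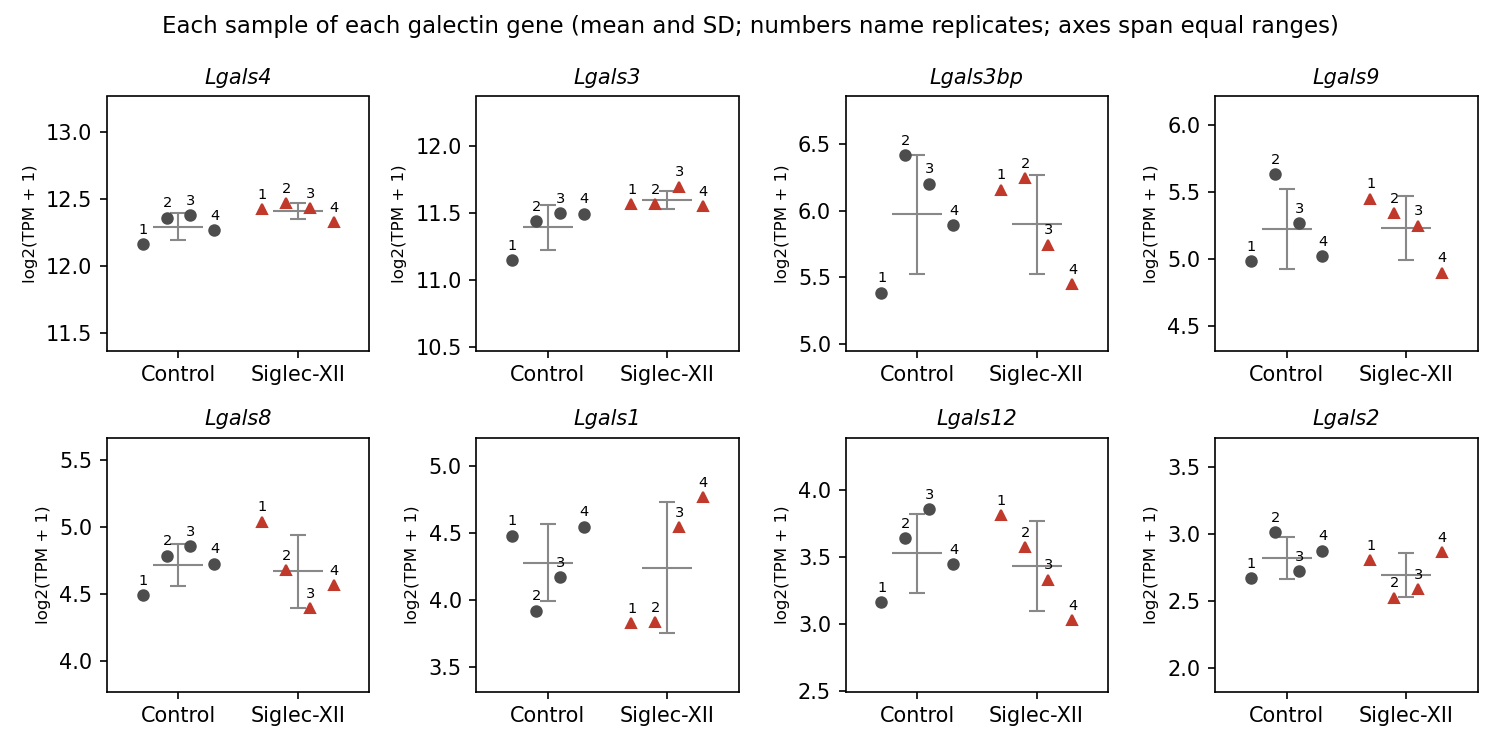
log2(TPM + 1) of each galectin gene in each sample, with group mean and SD (circles, Control; triangles, Siglec-XII; 4 per group; numbers are the replicate numbers) on axes of equal span. Lgals4 varied least within the groups, and Lgals3 was the gene in which all 4 Siglec-XII samples lay above all 4 controls.

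Across the set, 0 of 8 genes had an adjusted p of 0.05 or less in limma, beside 0.0380% (5 genes) of the 13164 tested, and 0 of 8 had an unadjusted p of 0.05 or less, beside 8.87% (1167 genes), with 1.19% of all tested genes higher and 7.67% lower. Those 5 genes were Gm13394, Gm45063, Gm7336, Prh1 and Esr1, named here after their values were seen. Of the 8 galectin genes, 3 had a difference above 0 (Lgals3, Lgals4 and Lgals9) and 5 below 0, and after quantile normalization all 8 were above 0. They were also above 0 after median centring, as follows from the 0.21 it adds, the lowest difference being -0.13. The median difference was -0.04 for the galectin genes and -0.15 for all tested genes, and after median centring the medians were 0.17 and 0.06. The 95% intervals reached at most 0.52 above 0 and -0.63 below 0 on the deposited scale, so 2-fold differences between the group means lay outside all 8 intervals, for this spread between samples.

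**Figure D3:**
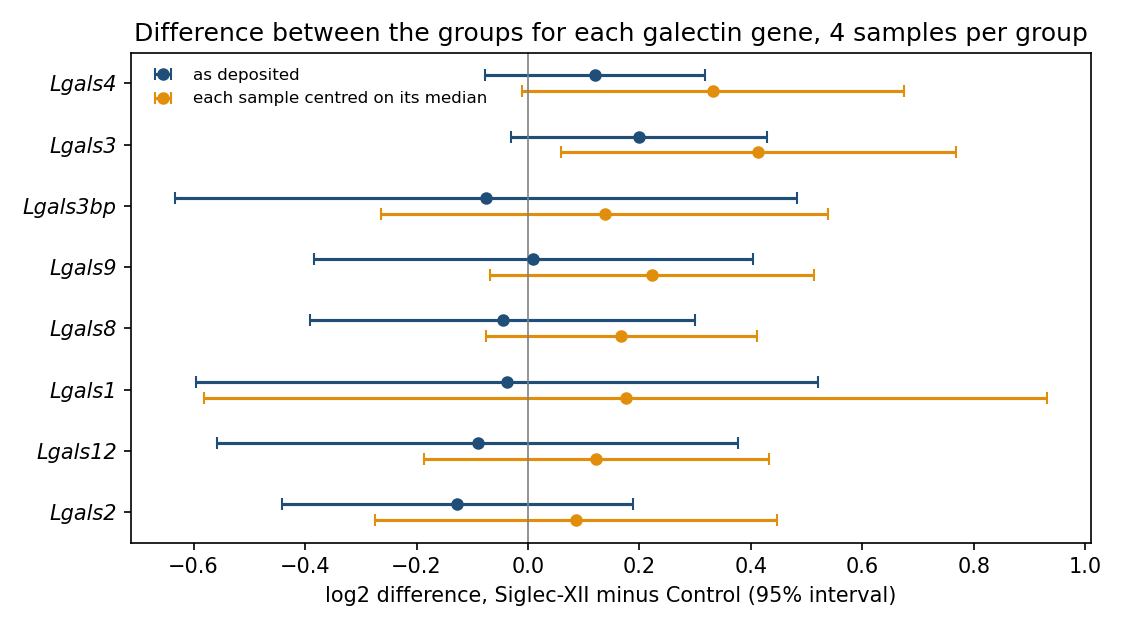
log2 difference (Siglec-XII minus Control) with its 95% interval from limma for each galectin gene, on the deposited log2(TPM + 1) values and after centring each sample on its median (4 samples per group). On the deposited scale every interval held 0; centring moved all 8 estimates up by the same 0.21, to above 0, and the interval of Lgals3 ran from 0.06 to 0.77.

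Galectin family genes outside the set were led by Lgals7, the galectin of stratified squamous epithelium. Lgals7 had 397 and 166 TPM in controls 1 and 2, 183 and 643 TPM in controls 3 and 4, and 263, 395, 141 and 203 TPM in Siglec-XII samples 1 to 4. It was thus the third galectin gene by level in every sample, after Lgals4 and Lgals3, and its 3 highest samples were the 3 squamous-rich ones. Its log2 difference was -0.34 (95% interval -1.39 to 0.70; limma adjusted p = 0.721), and it turned to 0.17 without those samples, 0.47 with centring as well, 0.24 with array weights and 0.03 without Control 4. The part of squamous tissue in the Lgals7 values was not tested.

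Lgalsl, a galectin-related gene, had 46.8, 23.4, 23.5 and 34.3 TPM in the controls and 23.95, 26.04, 20.03 and 19.4 TPM in the Siglec-XII samples. The same 3 samples were highest, and the log2 difference was -0.45 (95% interval -0.95 to 0.05; limma adjusted p = 0.515). It shrank to -0.25 without Control 1, to -0.16 with array weights and to -0.15 without the 3 squamous-rich samples, and turned to 0.15 with centring as well. Lgalsl was at -0.58 without Control 2 and -0.57 without Control 3, each with an unadjusted p below 0.05. Of its 31-base windows 5.37% also occurred in other genes, against 0 for Lgals7. Grifin was listed at 0 in every sample, and Lgals6 had no row under that symbol among the deposited genes.

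**Figure D4:**
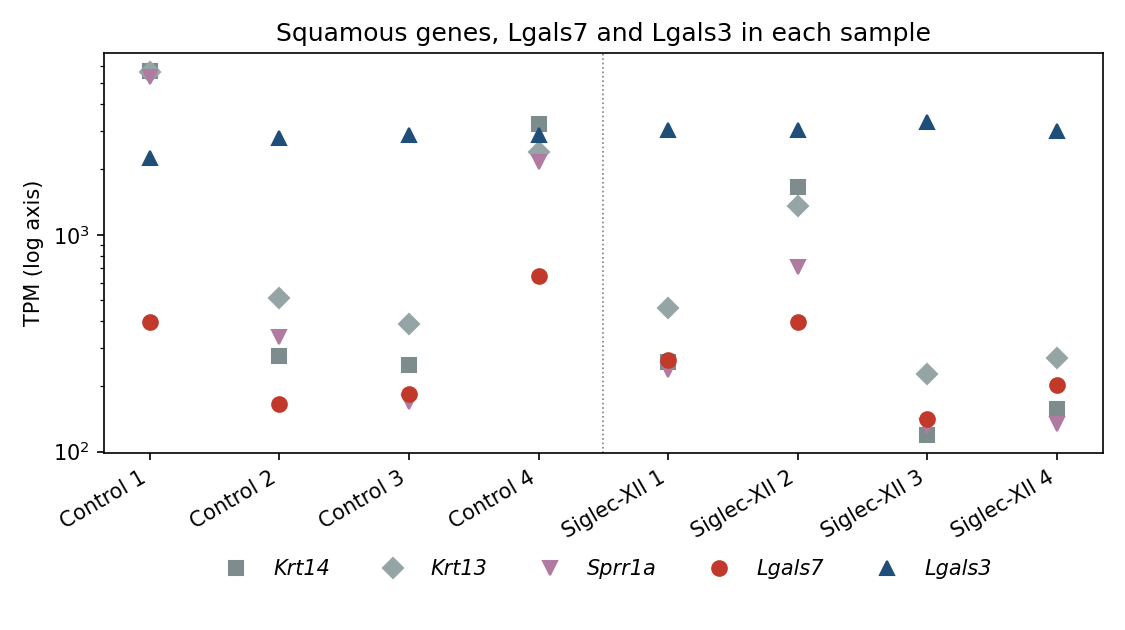
TPM (log axis) of the squamous genes Krt14, Krt13 and Sprr1a, of Lgals7 and of Lgals3 in each of the 8 samples. Control 1, Control 4 and Siglec-XII 2 were the highest for the squamous genes and for Lgals7, which reached 643 TPM in Control 4, while Lgals3 was lowest in Control 1 at 2266 TPM.

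Of the genes whose products build or cap the sugars that galectins bind, 1 of 12 had an unadjusted p of 0.05 or less, about the 8.87% of all tested genes (1.19% higher), and 0 an adjusted p of 0.05 or less. This was Gcnt1, which makes the branch of core 2 O-glycans, at 22.1, 27.1, 25.02 and 25.96 TPM in the controls and 31.5, 36.1, 29.8 and 37.3 TPM in the Siglec-XII samples. The lowest Siglec-XII value exceeded the highest control. The log2 difference was 0.41 ± 0.11 (SE; 95% interval 0.16 to 0.67; limma adjusted p = 0.515), and it was 0.63 after median centring and 0.32 without the 3 squamous-rich samples, where alone of the 17 alternatives its unadjusted p was above 0.05. The most abundant gene of the list, the N-glycan branching enzyme gene Mgat4b, lay between 130.9 and 187 TPM, and the lowest difference was that of Mgat5, another branching enzyme (-0.25, adjusted p = 0.644), which ranged from -0.63 without the 3 squamous-rich samples to -0.04 after centring. The median difference of the 12 genes was 0.03, and 0.24 after centring. The count depended on the scale: after centring 6 of 12 were higher and 0 lower at an unadjusted p of 0.05 or less, beside 8.64% higher and 2.16% lower of all tested genes, and 0 of 12 passed after adjustment.

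Among 16 glycoproteins known to bind galectins, 12 passed the filter, of which 0 were higher and 3 lower at an unadjusted p of 0.05 or less, beside 1.19% higher and 7.67% lower of all tested genes, and 0 passed after adjustment. The hyaluronan receptor gene Cd44 had 14.4, 6.39, 5.60 and 11.7 TPM in the controls and 5.57, 6.79, 3.34 and 2.91 TPM in the Siglec-XII samples. Its groups overlapped, the 3 squamous-rich samples were the highest, and the log2 difference was -0.86 (95% interval -1.60 to -0.13; limma adjusted p = 0.515). It was -0.54 without those samples, -0.24 with centring as well and -0.33 with array weights, each with an unadjusted p above 0.05, and at its lowest -1.06 without Control 3. The difference was -0.58 for the integrin gene Itga5 and -0.50 for the aminopeptidase gene Anpep, both also below 0 after centring. Itga5 was lowest in Siglec-XII 4 and Siglec-XII 3 (1.71 and 2.81 TPM), and its difference ranged from -0.25 with array weights and -0.36 without Siglec-XII 4 to -0.74 without Siglec-XII 1 and -0.83 without the 3 squamous-rich samples, the unadjusted p being above 0.05 in the former pair and below it in the latter. That of Anpep ranged from -0.18 without the squamous-rich samples and with centring to -0.66 without Siglec-XII 1. After centring 0 of 12 were lower at an unadjusted p of 0.05 or less and 1, P4hb, was higher, beside 2.16% and 8.64% of all tested genes. The highest difference was that of P4hb, a protein disulfide isomerase that galectin-9 retains at the cell surface (0.10, adjusted p = 0.561), and the most abundant was Ceacam1, at 423 to 866 TPM. The median difference of the list was -0.13, and 0.09 after centring.

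In the list of the damaged-membrane response, in which galectins mark broken vesicles for autophagy, 0 of 9 genes had an unadjusted p of 0.05 or less, beside 8.87% of all tested genes. The autophagy receptor gene Tax1bp1 was the most abundant at 208 to 343 TPM. The highest difference was that of Trim16, which works with galectin-3 (0.31; limma adjusted p = 0.515), and the lowest was that of the kinase gene Ulk1 (-0.52; adjusted p = 0.515). Trim16 was at 0.53 after centring, 0.17 without Control 1, 0.12 without the 3 squamous-rich samples and 0.42 with centring as well. Ulk1 was at -0.30 after centring, -0.24 with array weights, -0.70 without Siglec-XII 1 and -0.64 without Siglec-XII 2. An unadjusted p of 0.05 or less was reached in 5 of 17 alternatives for Trim16 and in 2 (the latter pair) for Ulk1. The median difference was -0.19, and 0.02 after centring, when 1 of 9, Trim16, was higher at an unadjusted p of 0.05 or less, beside 8.64% of all tested genes.

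Of 16 interferon-stimulated genes 13 passed the filter, and 0 of these had an adjusted p of 0.05 or less. The median difference of the list was -0.12, and 0.09 after centring. The most abundant was Irf1, at 49.7 to 84.3 TPM, and the highest difference was that of Oas1a (0.05, adjusted p = 0.818). The summed TPM of the list was highest in Control 2 (366), in which Lgals9 and Lgals3bp were highest as well, and lay between 244 and 266 in the other 7 samples. Across those 7 samples Lgals9 still ranged from 28.8 to 42.7 TPM and Lgals3bp from 40.8 to 74.6 TPM. The part of interferon-stimulated expression in these values was not tested.

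The smooth muscle markers were the cell type list with the most genes below the 0.05 limit. All 6 had a difference below 0, before and after centring, and 3 (Myh11, Cnn1 and Des) had an unadjusted p of 0.05 or less, at -0.78, -0.75 and -0.70, each with an adjusted limma p of 0.515, beside 7.67% of all tested genes lower at that limit. The same 3 were lower at that limit after centring, beside 2.16% of all tested genes. Siglec-XII 4 carried part of the size: without it they were at -0.51, -0.49 and -0.47, and with array weights at -0.46, -0.63 and -0.50. Without the 3 squamous-rich samples they were at -0.77, -0.78 and -0.76. In that fit, which has fewer samples, the unadjusted p of all 3 was above 0.05, with centring as well. The unadjusted p of Myh11 and Cnn1 was also above 0.05 without Control 3. The summed TPM was 855, 623, 1003 and 812 in the controls and 638, 563, 651 and 303 in the Siglec-XII samples, with Tagln the most abundant at 124 to 342 TPM. Among the leukocyte markers, 1 of the 3 tested, the complement gene C1qb, had an unadjusted p of 0.05 or less (-0.84, limma adjusted p = 0.515), beside 7.67% of all tested genes lower at that limit. After centring this was 0 of 3, beside 2.16% of all tested genes. C1qb was at 1.11 to 8.40 TPM and highest in Control 1 and Control 4. Its difference was -0.55 without Control 1, -0.33 without the 3 squamous-rich samples and -0.03 with centring as well, each with an unadjusted p above 0.05, and at its lowest -1.12 with a pseudocount of 0.1. C1qa, the most abundant of them, lay between 1.89 and 8.75 TPM and the macrophage gene Cd68 between 1.02 and 3.50 TPM. In the goblet cell list 0 of 6 genes and in the adipocyte list 0 of 5 had an unadjusted p of 0.05 or less, beside 8.87% of all tested genes. The goblet cell median difference was 0.07, and 0.28 after centring, when 1 of 6, Agr2, was higher at that limit (8.64% of all tested genes). The adipocyte medians were 0.05 and 0.26. None of these markers was at 0 in all samples.

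**Figure D5:**
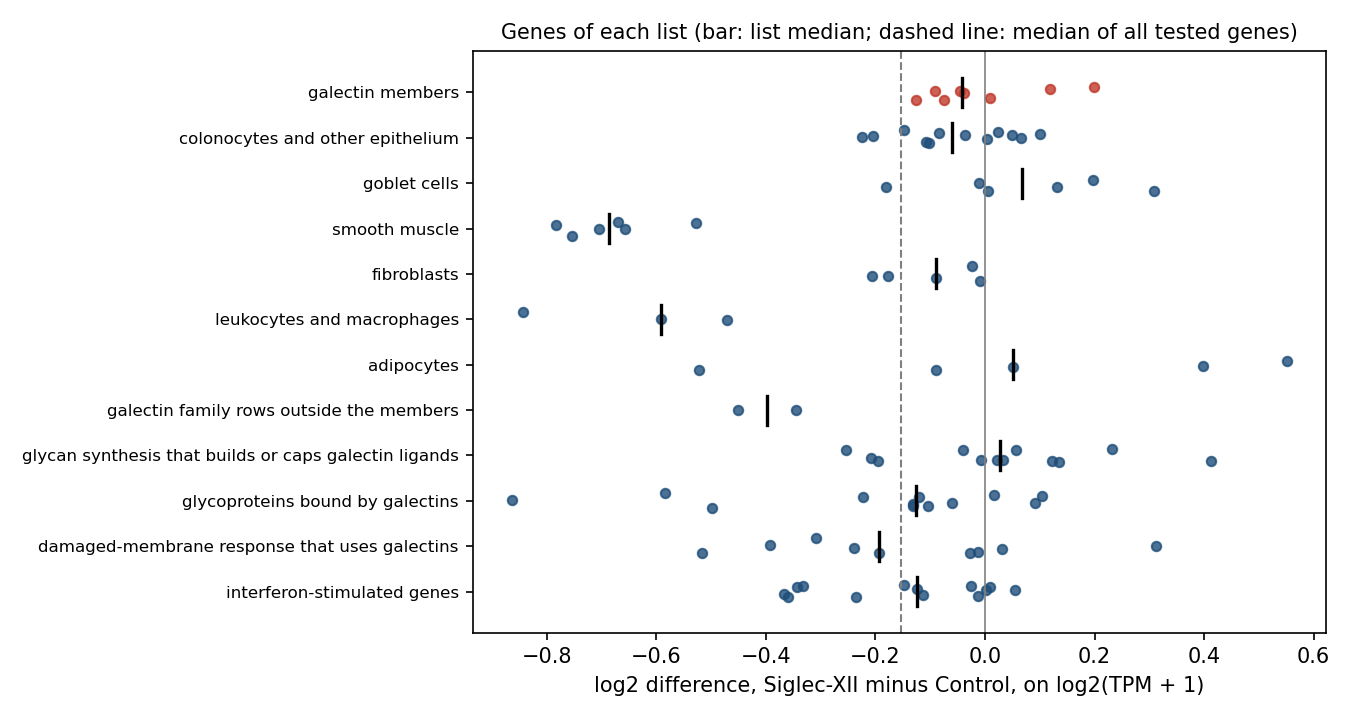
log2 difference (Siglec-XII minus Control) of each tested gene in the galectin set and in the lists of markers and pathways, with the list median (bar) and the median of all tested genes (dashed line, -0.15). The galectin genes lay between -0.13 and 0.20, and all 6 smooth muscle markers lay below -0.50.

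The genes whose profile over the 8 samples was nearest to that of a galectin gene were found by the root mean square difference of log2(TPM + 1), after each sample was centred on its median and each gene on its own mean. For Lgals3 these were S100a10 (0.04), Gm16206 (0.05) and Tusc3 (0.05), against a median of 0.29 over all tested genes. S100a10, of the S100 family but without its calcium binding, had 707, 905, 899 and 884 TPM in the controls and 972, 995, 1086 and 909.7 TPM in the Siglec-XII samples, so that its groups did not overlap either (log2 difference 0.23; limma adjusted p = 0.515). As for Lgals3, the difference was smaller without Control 1 (0.14) and without the 3 squamous-rich samples (0.13), but 0.43 with centring as well. S100a10 was picked for its likeness to Lgals3 over the same 8 samples. Its similar group difference and low Control 1 follow from that choice and are not separate observations. The difference in S100a10 was larger after centring (0.44) and quantile normalization (0.33). These fits, that with array weights (0.17) and that without Siglec-XII 4 (0.27) gave an unadjusted p below 0.05. For Lgals4 the nearest were Cyp20a1 (0.03), Rab4b (0.04) and Slc39a5 (0.04), against a median of 0.25. Lgals4 varied little on the deposited scale (SD of 0.10 and 0.06 in the groups), so its centred profile mainly follows the medians of the samples, and its nearest genes are other genes that varied little.

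For Lgals1 the nearest were the fibroblast proteoglycan gene Lum (0.07), Npb (0.15) and Clec2d (0.16), against a median of 0.51. Lum had 1.13, 0.36, 0.60 and 1.09 TPM in the controls and 0.34, 0.40, 1.16 and 1.24 TPM in the Siglec-XII samples, low and high in the same samples as Lgals1. It was close to the filter limit, which it passed only through Control 1, Control 4, Siglec-XII 3 and Siglec-XII 4, the samples highest in Lgals1. For Lgals9 the nearest were the epithelial keratin gene Krt18 (0.08), Stambpl1 (0.09) and Epsti1 (0.09), against a median of 0.26. Krt18 had 333.5, 529, 486 and 375 TPM in the controls and 490.0, 438, 413 and 327 TPM in the Siglec-XII samples, with Control 2 the highest as for Lgals9. Lum and Krt18 were picked for their likeness to Lgals1 and Lgals9 over the same samples. Their shared highs and lows follow from that choice and are not separate observations.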

How the data were processed

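RNA of distal colon from 4 Control and 4 Siglec-XII samples was analysed. The authors quantified reads with kallisto (version 0.45.0 and GRCm38 in the submitters' processing notes; the paper's methods name another version, and the library kits named by labels and methods differ) and deposited log2(TPM + 1), with no adjustment between samples stated. Groups and replicate numbers came from the labels. Genes with at least 1 TPM in at least 4 samples were fitted in limma 3.58.1 under R 4.3.3 (moderated variances with a trend on mean level), p-values were adjusted by Benjamini-Hochberg over all 13164 genes, and the fit was tested on simulated data. No counts were used, so the authors' DESeq2 was not run. The galectin genes and the lists were chosen with earlier results of these data known. Genes named were the galectin genes, the most abundant gene, the highest and lowest difference and every gene with an unadjusted p of 0.05 or less in each list, and the 3 nearest profiles of Lgals1, Lgals3, Lgals4 and Lgals9. A gene of the interferon list is not reported here, and the lowest difference and the unadjusted count of that list are left out with it. The squamous list, the mitochondrial genes, the motifs, the counts after centring in the lists and the fits without the 3 squamous-rich samples were added after the data were seen. The interferon motif was searched in a longer form first and shortened after its matches were seen. Alternatives were a filter at 5 TPM or none, a pseudocount of 0.1, median centring, quantile normalization, array weights, the replicate number as a block and each sample left out. Positions are from GENCODE on GRCm38, which held 98.3% of the deposited gene identifiers, and promoters from RefSeq. Python 3.11.15 with pandas 2.3.3 and matplotlib 3.10.9 was used for summaries and figures.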

Additional observations from a re-analysis of the deposited data

Results flagged for a closer look

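A sample far from the other 3 of its group was found in 5 of the 114 groups of the genes followed, and chance flags about 1 in 20 groups. The measure was the gap from the extreme sample to the nearest of the others, as a share of the range of the group on the log2(TPM + 1) scale. Lgals3 was lowest in Control 1 (gap share 0.839), at 11.15 against 11.44 to 11.50 in the other controls, and highest in Siglec-XII 3 (0.885), at 11.70 against 11.55 to 11.57. S100a10 was lowest in Control 1 (0.904), at 9.47 against 9.79 to 9.82. This gene was picked as the nearest to Lgals3 in profile, so its flag, 1 of the 5, is not separate from that of Lgals3. The smooth muscle gene Des was lowest in Siglec-XII 4 (0.832), at 5.03 against 5.88 to 6.05. The interferon-stimulated gene Oas1a was highest in Siglec-XII 3 (0.891), at 5.69 against 5.57 to 5.58. Control 1 was also the sample with the most squamous RNA, and its part in the Lgals3 and S100a10 values was not tested.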

How the results depend on the processing

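No galectin gene reached an adjusted p of 0.05 in limma under any of the 17 alternatives, and the unadjusted count was 0 on the deposited scale, 1 after median centring (Lgals3) and 2 with array weights (Lgals2 and Lgals4). Of all 13164 tested genes, 1167, 1422 and 1851 had an unadjusted p of 0.05 or less in these fits, respectively. Lgals3 stayed above 0 throughout, between 0.11 and 0.44 (limma adjusted p 0.324 to 0.905), and Lgals4 between 0.02 and 0.33 (adjusted p 0.336 to 0.926). The changes of filter and the replicate block leave the difference itself unchanged, and centring over all 8 samples adds 0.21 to it. The order of the 8 genes in the controls was kept with TPM rescaled to equal medians, with the median in place of the mean and without each control. With 4 samples per group and unknown depth, differences smaller than the intervals were not detectable.

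After median centring and quantile normalization, respectively, the difference turned to 0.18 and 0.13 for Lgals1, 0.086 and 0.12 for Lgals2, 0.14 and 0.033 for Lgals3bp, 0.17 and 0.11 for Lgals8 and 0.12 and 0.13 for Lgals12, and the median over the galectin genes to 0.17 and 0.12. Centring moved the share of unadjusted calls that were higher in Siglec-XII from 13.5% to 80.0% (1137 higher, 285 lower), and quantile normalization to 63.3%. With array weights Lgals3bp turned to 0.092 and Lgals7 to 0.24, and Lgals1 fell to -0.37. Without the 3 squamous-rich samples, Lgals1 turned to 0.33, Lgals9 to -0.25, Lgals7 to 0.17 and Oas1a to -0.0021, while Lgals3bp fell to -0.52 and Lgals12 to -0.36 (adjusted p of 0.491 and 0.512), and with median centring as well Lgals1 was at 0.63, Lgals2 at 0.18, Lgals8 at 0.15, Lgals7 at 0.47, Lgalsl at 0.15, Tagln at 0.022 and the galectin median at 0.16, while Lgals3bp was at -0.22 and Lgals12 at -0.059. With the same samples left out and centring, Lgals3 was at 0.44, Lgals4 at 0.32 and Lgals9 at 0.049. The causes were not tested.

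With a single sample left out, differences ranged from -0.21 to 0.10 for Lgals1, -0.18 to -0.06 for Lgals2, 0.12 to 0.23 for Lgals3, -0.27 to 0.075 for Lgals3bp, 0.08 to 0.15 for Lgals4, -0.17 to 0.046 for Lgals8, -0.072 to 0.14 for Lgals9, -0.22 to 0.046 for Lgals12 and -0.62 to 0.026 for Lgals7, and the galectin median from -0.11 to 0.06.

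Among all tested genes, the 5 with an adjusted p of 0.05 or less became 3 with a filter at 5 TPM, 3 without a filter and 18 with array weights, and between 2 and 6 with a sample left out. The 1167 with an unadjusted p of 0.05 or less became 699, 2043 and 1851, 777 without the squamous-rich samples, and between 483 (without Siglec-XII 3) and 2365 (without Siglec-XII 1) with a sample left out. Fewer or more genes tested and fewer samples are part of these alternatives.

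The replicate numbers did not pair the samples: deviations of same-numbered samples correlated at -0.165, -0.204, 0.103 and -0.0025, and 0 of 4 controls were closest to their own number. With the replicate number as a block, 0 galectin genes passed either limit, Lgals3 was at 0.20 (adjusted p = 0.629), and the counts over all genes were 4 and 945.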
